A study of Mus musculus with 7 samples.

Results

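The genes described here are 6 that serve MHC class II antigen presentation: H2-Aa, H2-Ab1, H2-Eb1, H2-DMa, Cd74 and Ciita. They were chosen by symbol, with the difference of H2-Aa and H2-Ab1 between the Sca1+ and Sca1- fractions already known, and they are 6 of 12393 mouse genes read by probe sets annotated to 1 gene. The annotation pairs 10 probe sets with these symbols alone and 0 with these symbols and another gene. H2-Ab1 has 3 probe sets, H2-Aa and Ciita have 2 each, and the other 3 genes have 1 each.

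The study read total RNA from cells of mouse fetal liver on 7 arrays: a feeder cell layer from fetal liver (n = 1), unsorted liver endothelial progenitors (n = 1), and such progenitors in a Sca1+ fraction (n = 2) and a Sca1- fraction (n = 3). Sca1 is a surface antigen of many stem and progenitor cells. Strain, fetal age and treatment are not given in the sources used here, nor is whether the samples of a fraction came from separate cultures, so the spread between them may be partly technical. The 3 arrays whose titles name sample 2 or 3 (Sca1+ replicate 2, Sca1- replicates 2 and 3) are called the second set here, and the 4 without a number the first set, a split inferred from the titles. The feeder array lies in a table of its own under another array platform.

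Class II molecules display peptides taken up from outside the cell to CD4 T cells, and are made mainly by B cells, dendritic cells and activated macrophages. The alpha and beta chains (H2-Aa with H2-Ab1, and H2-Ea with H2-Eb1) assemble on the invariant chain, the product of Cd74, which guides them to the endosome. There the H2-DM dimer, of which H2-DMa encodes the alpha chain, exchanges the last fragment of the invariant chain for peptide. Ciita, the class II transactivator, binds no DNA itself but joins the factors RFX, CREB and NF-Y on a shared promoter module and switches the whole set of genes on.

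Parts of that module are shown in the proximal promoters of the 2 chain genes that the results turn on and for which a RefSeq window (GRCm38.p6, 250 bases before to 50 after the start) was matched. Capitals mark TGATTGG, a longer form of the NF-Y motif ATTGG (the Y box), and TGACG, the core motif of CREB factors, each searched on both strands. The H2-Aa window is chr17:34287774-34288073 on the minus strand and the H2-Eb1 window is chr17:34305617-34305916 on the plus strand.
H2-Aa: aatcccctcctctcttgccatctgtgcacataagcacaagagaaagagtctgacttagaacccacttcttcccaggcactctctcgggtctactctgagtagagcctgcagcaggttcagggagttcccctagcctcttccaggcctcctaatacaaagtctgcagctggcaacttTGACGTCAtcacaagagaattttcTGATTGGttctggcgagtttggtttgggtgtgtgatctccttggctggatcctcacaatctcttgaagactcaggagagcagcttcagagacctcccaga
H2-Eb1: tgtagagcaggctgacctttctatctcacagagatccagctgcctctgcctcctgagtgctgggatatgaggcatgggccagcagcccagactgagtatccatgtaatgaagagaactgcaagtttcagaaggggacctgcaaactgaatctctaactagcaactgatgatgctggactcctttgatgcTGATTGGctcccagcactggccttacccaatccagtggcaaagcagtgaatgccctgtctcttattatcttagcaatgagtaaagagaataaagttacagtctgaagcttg

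TGATTGG begins 50 bases before the start of H2-Aa and 61 bases before that of H2-Eb1, and is in 7.82% of all 32851 promoter windows of this length. This longer form was chosen after the data were seen, and ATTGG, which it contains, is in 37.4% of the windows. TGACG is in the H2-Aa window on both strands, where the copies overlap, and not in that of H2-Eb1; it is in 20.8% of all windows. Neither of the 2 windows of H2-DMa holds TGATTGG, and 1 of them holds ATTGG, as 37.4% of all windows do. Windows were matched for 3 of the 6 genes; H2-Ab1, Cd74 and Ciita were not matched. Among 12 other class II chain and loading genes, 10 had a window and 5 of those held TGATTGG (H2-Oa, H2-Ob, H2-DMb1, H2-DMb2 and H2-Eb2). A motif match is a description of the sequence and does not show binding.

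Values are signals, linear intensities scaled here to a trimmed mean of 500 on each array. Each signal is read against the highest of 27 probe sets for bacterial control transcripts on the same array, which lay between 50.8 and 170 and serve here as a mark of background. Of the 10 probe sets, 3 exceeded that mark on all 7 arrays (H2-DMa, Cd74 and 1435290_x_at of H2-Aa) and 2 on none (1425477_x_at of H2-Ab1 and 1421211_a_at of Ciita). By array the number above it was 6 on the feeder, 5 on the unsorted, 8 and 5 on the Sca1+ and 5, 3 and 5 on the Sca1- arrays, out of 10. Of all 22626 probe sets other than controls, 70.7% exceeded it on the feeder, 58.9% on the unsorted, 67.6% and 64.2% on the Sca1+ and 45.2%, 60.7% and 70.7% on the Sca1- arrays. The plot of signals by array shows all 10 probe sets beside this mark.

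**Figure D1:**
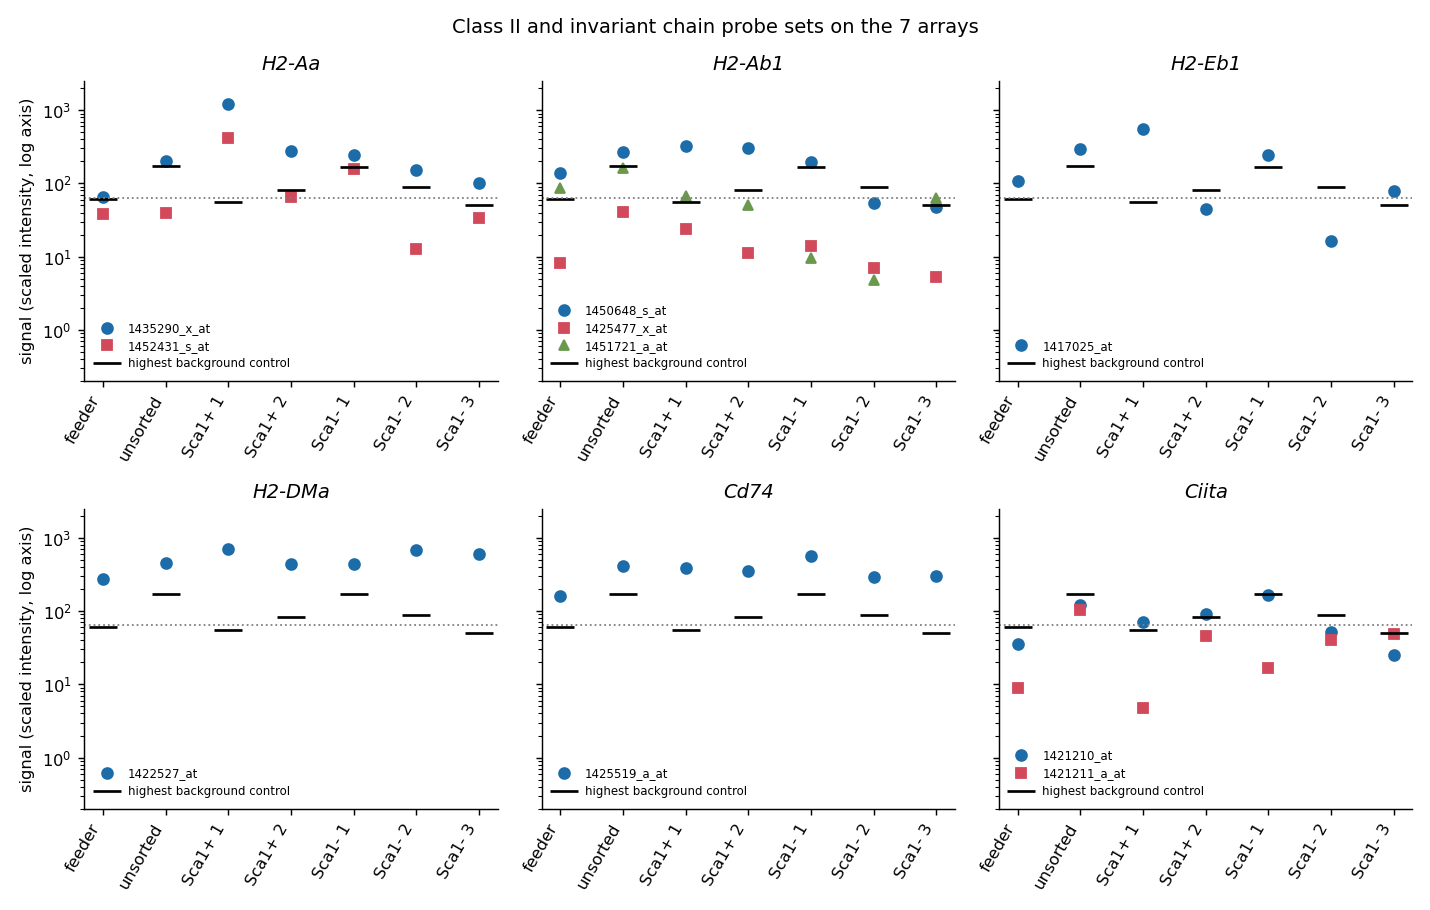
Signals of the 10 probe sets of the 6 genes on the 7 arrays (log axis), with the highest background control of each array as a bar and the floor of 64 as a dotted line. H2-DMa and Cd74 stood above the controls on every array, H2-Aa peaked at 1201 on Sca1+ replicate 1, and both probe sets of Ciita lay near or below the controls.

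H2-Aa, the alpha chain gene of the H2-A dimer, was highest in the Sca1+ fraction. Its brighter probe set, 1435290_x_at, had signals of 1201 and 273 in Sca1+ cells against 241, 154 and 102 in Sca1- cells, with 65.2 on the feeder and 201 on the unsorted array. The fractions did not overlap, but the lower Sca1+ value lay close to the highest Sca1- value. The second probe set, 1452431_s_at, had 416 and 65.2 in Sca1+ cells against 157, 12.6 and 33.6 in Sca1- cells, so there the fractions overlapped. It exceeded the background controls only on Sca1+ replicate 1. The endings _x_at and _s_at mark probe sets that can also match other transcripts, whose part in these signals was not tested.

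H2-Ab1 encodes the beta chain that pairs with the H2-Aa product. Its probe set 1450648_s_at had signals of 321 and 303 in Sca1+ cells against 194, 54.2 and 47.0 in Sca1- cells, with 140 on the feeder and 270 on the unsorted array. The Sca1+ arrays lay close together and above every Sca1- array, of which replicates 2 and 3 lay below their background controls. Of its other probe sets, 1451721_a_at had 66.6 and 50.2 in Sca1+ cells against 9.59, 4.80 and 62.8 in Sca1- cells, with overlap, and 1425477_x_at never exceeded 40.2 on any array.

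H2-Eb1, the beta chain gene of the H2-E dimer, followed the sets more than the fractions. Its single probe set had signals of 562 and 45.2 in Sca1+ cells against 241, 16.2 and 79.4 in Sca1- cells, with 109 on the feeder and 299 on the unsorted array. The fractions overlapped, whereas both first-set sorted arrays lay above all second-set arrays. H2-Ea, the alpha chain gene of the same dimer and not among the 6, had 607 and 78.2 in Sca1+ cells against 75.8, 64.2 and 9.996 in Sca1- cells, so it too was highest on Sca1+ replicate 1. It read 244 on the unsorted array and exceeded the controls on those 2 arrays alone.

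H2-DMa and Cd74, which serve loading and transport, did not separate the fractions. H2-DMa had signals of 695 and 434 in Sca1+ cells against 443, 691 and 595 in Sca1- cells, with 275 on the feeder and 447 on the unsorted array. Cd74 had 392 and 350 in Sca1+ cells against 566, 291 and 301 in Sca1- cells, with 161 on the feeder and 415 on the unsorted array. For both genes the Sca1+ values fell inside the range of the Sca1- values or overlapped it.

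Ciita was near background throughout. Probe set 1421210_at had 70.2 and 92.2 in Sca1+ cells against 167, 51.8 and 24.8 in Sca1- cells, with 35.6 on the feeder and 120 on the unsorted array. It exceeded the background controls on the 2 Sca1+ arrays alone, and its value of 167 on Sca1- replicate 1 lay just below that array's highest control of 170. Its second probe set, 1421211_a_at, was at or under the floor of 64 on 6 of 7 arrays. A difference of Ciita between the groups was therefore not detectable at this signal over background.

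On the log2 scale, with signals under 64 set to 64 and the probe set of highest mean kept per gene, the differences Sca1+ minus Sca1- were 1.88 for H2-Aa, 1.75 for H2-Ab1, 0.82 for H2-Eb1, 0.01 for Cd74, -0.04 for H2-DMa and -0.13 for Ciita. These are a description, because the members were chosen with this contrast known. Their median was 0.42 beside 0.07 over the 8591 genes tested, and 4 of 6 were above 0, beside 55.9% of those genes. H2-Aa and H2-Ab1 were higher in both Sca1+ arrays than in any of the Sca1- arrays, and this was so for 12.1% of all genes tested (8.13% of all probe sets of 1 gene), with 8.45% of genes lower in both. Since the members were chosen on it, nothing follows from that count. Signals above 100 on at least 2 sorted arrays were required for the test across all genes, and 5 of the 6 genes met this, Ciita not. Just inside that filter lay H2-Eb1, above 100 on 2 sorted arrays, and just outside it Ciita, above 100 on 1.

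Within the sets the difference was above 0 in both for H2-Aa and H2-Ab1. For H2-Aa it was 1.12 in the second set and 2.32 in the first. For H2-Ab1 it was 2.24 in the second set, where both Sca1- arrays were at the floor so that this is a lower bound, and 0.72 in the first. H2-Eb1 differed by -0.16 in the second set, where its Sca1+ array and 1 Sca1- array were at the floor, and 1.22 in the first. H2-DMa, Cd74 and Ciita each had opposite signs in the 2 sets. With 1 Sca1+ array per set these differences have no replicate check. Leaving out Sca1+ replicate 1 took the H2-Aa difference to 0.81 and that of H2-Eb1 to -0.74, and leaving out Sca1+ replicate 2 took them to 2.95 and 2.39. The plot of differences within each set shows this.

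**Figure D2:**
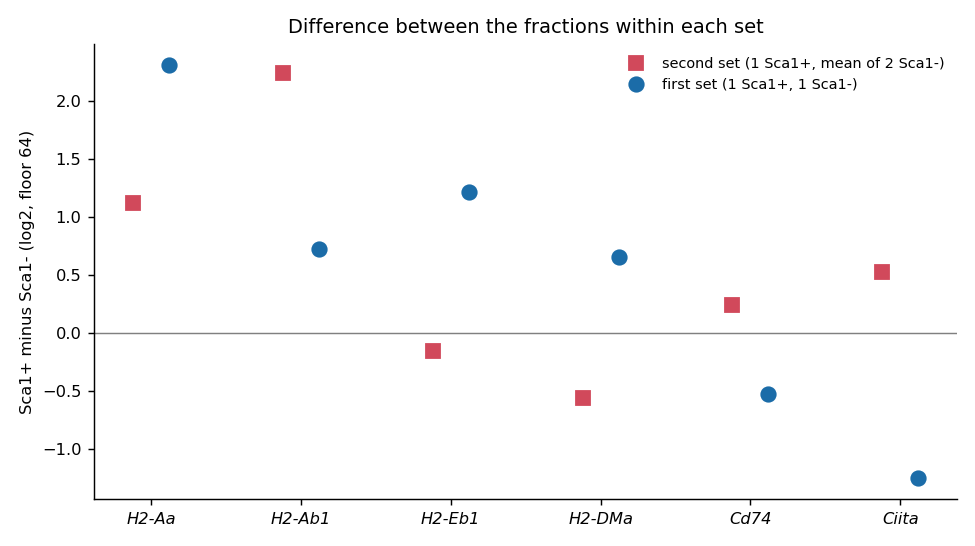
Log2 difference Sca1+ minus Sca1- for the 6 genes, within the second set (squares, 1 Sca1+ array against the mean of 2 Sca1- arrays) and within the first set (circles, 1 array each). H2-Aa and H2-Ab1 are above 0 in both sets, and H2-DMa, Cd74 and Ciita change sign between them.

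The second set was then compared with the first across the sorted arrays, with fraction in the model, a contrast that the choice of members did not use. H2-Eb1 fell by 2.35 ± 0.44 on the log2 scale (SE) in the second set (limma, adjusted p = 0.0183), and it was lower on all 3 second-set arrays than on both first-set arrays. The H2-Aa difference was -1.46 ± 0.41 (limma, adjusted p = 0.0537), that of H2-Ab1 -0.95 ± 0.44 (limma, adjusted p = 0.178), that of Cd74 -0.60 ± 0.31 (limma, adjusted p = 0.208) and that of H2-DMa 0.01 ± 0.35 (limma, adjusted p = 0.984); none of these 4 passed the threshold of 0.05. Leaving out 1 array gave H2-Ab1 between -1.60 and -0.08, Cd74 between -0.93 and -0.16 and H2-Aa between -2.14 and -0.95. For H2-Ab1 and Cd74 the value nearest 0 came without Sca1- replicate 1. The values farthest from 0, -1.60 and -0.93, came without either Sca1+ array. Both of those fits make the same comparison, Sca1- replicates 2 and 3 against Sca1- replicate 1 alone. So 1 of 5 tested members passed, beside 19.2% of the 8591 genes (11.8% higher and 7.46% lower in the second set), a share near the background. The split over all genes, 1012 higher and 641 lower, was 525 and 728 with median scaling and 892 and 896 with quantile normalization. H2-Eb1 passed the filter on low signals only through the first-set arrays, where it is high, and was at the floor on 2 of the 3 second-set arrays. Without that filter its adjusted p was 0.132, with a floor at 2 times 64 it was 0.0909, and without either first-set sorted array it was not tested.

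Among the 5 sorted arrays, on which that contrast rests, markers of several cell types and RNA quality differed between the sets. Which cells those marker transcripts came from was not tested. All 7 of 7 fibroblast markers tested were higher in the second set, beside 11.8% of the 8591 genes. Col1a1, Dcn, Lum, Pdgfra and Postn met the filter on low signals only through second-set arrays, where they are high. The summed signal of the 7 was 75805, 30717 and 27894 on the second-set arrays (Sca1+ replicate 2, Sca1- replicates 2 and 3). On the first-set Sca1+ and Sca1- arrays it was 1588 and 2511. The feeder and unsorted arrays, also of the first set but outside the fit, had 55054 and 52315. Ptprc, which encodes the leukocyte antigen CD45, fell by 1.04 ± 0.21 (limma, adjusted p = 0.0235). For Actb, the signal at the 3' end over that at the 5' end, which is high where transcripts are truncated, lay between 1.87 and 2.37 on the second-set arrays against 6.83 on Sca1+ replicate 1 and 13.5 on Sca1- replicate 1, and was 1.03 on the feeder and 1.01 on the unsorted array. Of 3 T-cell markers tested 2 were lower in the second set: Cd3d, a chain gene of the T-cell receptor complex, fell by 3.12 ± 0.27 (limma, adjusted p = 0.00296) and Cd3g by 1.88 ± 0.34 (limma, adjusted p = 0.0168). Of 6 B-cell markers 1 did, Ms4a1, which fell by 1.24 ± 0.33 (limma, adjusted p = 0.0467). Higher in the second set were 3 of 11 macrophage markers (C1qa, C1qc and Cd5l), 2 of 3 hepatoblast markers (Afp and Dlk1) and 1 of 5 dendritic cell markers (Fscn1). Beside these counts, 11.8% of all 8591 genes were higher and 7.46% lower in the second set. Nothing is read from a count of 1 in lists this short. Afp too met the filter only through second-set arrays. Outside that set Fscn1 exceeded 100 on Sca1+ replicate 1 (167), and Dlk1 barely did on Sca1- replicate 1 (100.1). The part of these cell markers and of RNA quality in the difference of H2-Eb1 was not tested. In bulk RNA, fewer cells of a type and less RNA per cell cannot be told apart.

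The progenitor label was set beside marker lists. Of 12 endothelial markers measured, between 2 and 7 exceeded the background controls on a sorted array, 6 on the feeder and 5 on the unsorted array, while of 12 macrophage markers between 9 and 11 did on every array. Pecam1, which encodes the endothelial antigen CD31, had 15.0 and 206 in Sca1+ cells against 23.2, 117 and 25.8 in Sca1- cells, with 124 on the feeder and 117 on the unsorted array, and exceeded the controls on 3 of the 7 arrays.

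Markers of B cells, which express class II constitutively, were read beside the chain genes. The summed signal of 11 B-cell markers was 3373 and 1888 in Sca1+ cells against 1470, 1062 and 999 in Sca1- cells, with 1451 on the feeder and 2388 on the unsorted array. These sums did not overlap between the fractions. Nor did the macrophage sums given below, or those of 9 class I genes (79856 and 67498 against 59956, 57552 and 52084). Between 6 and 8 of the 11 B-cell markers exceeded the controls on the Sca1+ arrays, and between 3 and 7 on the Sca1- arrays. The B-lineage transcription factor genes Pax5 and Ebf1 exceeded them on no array, and their signals, like that of Fcer2a, were higher on Sca1- replicate 1 than on either Sca1+ array. Of 6 tested, 0 passed between the fractions (limma) and 3 had an unadjusted p under 0.05. In both Sca1+ arrays 4 of the 6 were higher than in any Sca1- array, beside 12.1% of all genes tested. The differences were led by the CD20 gene Ms4a1 (1.83 ± 0.61) and the adaptor gene Blnk (1.68 ± 0.59). The lowest were Igll1, of the pre-B-cell receptor (0.16 ± 0.52), and Cd79a, of the B-cell receptor (0.49 ± 0.49), for both of which the fractions overlapped.

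Dendritic cell markers did not show this order. The summed signal of 10 measured was 1712 and 4526 in Sca1+ cells against 1097, 2989 and 2932 in Sca1- cells, and the fractions overlapped. Most of it came from Fscn1, an actin-bundling gene that fibroblasts also express, on the second-set arrays and from Cd83 on Sca1+ replicate 1. Of the 10 markers, 6 and 4 exceeded the background controls in Sca1+ cells, against 1, 5 and 6 in Sca1- cells. Itgax and Clec10a did so on 6 of the 7 arrays each, and Cd209a on 4. The chemokine receptor genes Xcr1 and Ccr7 exceeded the controls on no array and Flt3, a receptor of dendritic precursors, on 1. The summed signal of 12 macrophage markers was 91343 and 72758 in Sca1+ cells against 51810, 58822 and 52916 in Sca1- cells, with 48095 on the feeder and 53091 on the unsorted array. These sums did not overlap between the fractions either. Of 11 tested, 0 passed (limma) and 2 had an unadjusted p under 0.05. Higher in both Sca1+ arrays than in any Sca1- array were 3 of the 11 (Adgre1, Fcgr1 and Cd68), beside 12.1% of all genes tested. Of 3 T-cell markers tested, 0 passed with group alone. With the set as a block 1 passed, Cd3d, beside 0.989% of all genes. Cd3d had 472 and 29.0 in Sca1+ cells against 5890, 622 and 574 in Sca1- cells. Its difference was -2.88 ± 1.23 with group alone (limma, adjusted p = 0.9995) and -3.40 ± 0.27 with the block (limma, adjusted p = 0.00545). For Cd3g (-0.47 ± 0.81) and Cd8a (0.02 ± 0.72), with group alone, the fractions overlapped. The part of B, dendritic or other cells in the class II signals was not tested.

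Genes whose pattern was most like that of the chains were sought over the 6 arrays of the larger table. Each gene was centred on its own mean log2 signal, and likeness was the root mean square difference from the mean of H2-Aa, H2-Ab1 and H2-Eb1. Among 8588 other genes tested the nearest was Ms4a1, at 0.29, and the next Cd22, a B-cell inhibitory receptor gene, at 0.30. St6gal1, which encodes the sialyltransferase that makes the CD22 ligand, came next at 0.35, followed by Ciao2b and Zfp87, both at 0.41. The median over all genes was 1.12, and the chain profile itself varied by 0.99 about its mean. Cd22 read 670 and 247 in Sca1+ cells against 245, 162 and 132 in Sca1- cells.

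Cd74 and H2-DMa were in places 1105 and 3450 of 8588 for likeness to that pattern. The 5 genes nearest to Cd74 were Cul3 (0.09), Chic2 (0.10), Exosc4 (0.11), Dctn5 (0.11) and Flywch1 (0.11), and none of the other members was near: H2-DMa was in place 3342, H2-Ab1 6486, H2-Eb1 7509 and H2-Aa 7539 of 8590. The 6 arrays come from 3 groups and 2 sets, so these distances are a description of these arrays, shown in the plot of centred profiles.

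**Figure D3:**
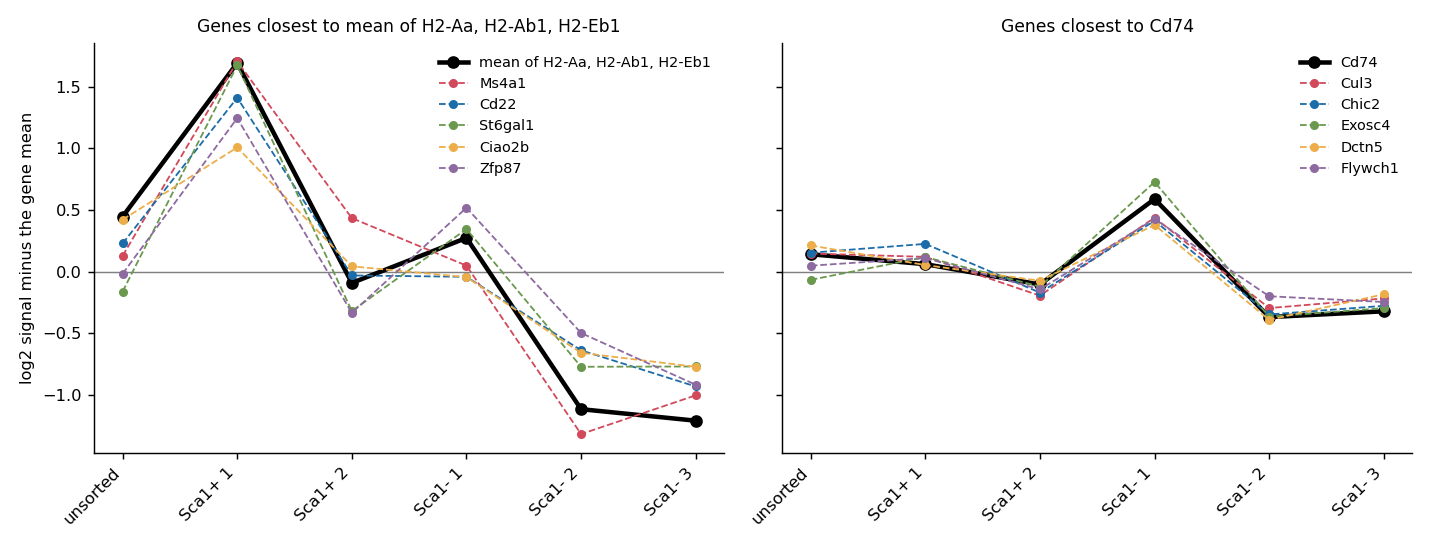
Log2 signal minus each gene's mean over 6 arrays (unsorted, Sca1+, Sca1-) for the mean of H2-Aa, H2-Ab1 and H2-Eb1 (left, black) and for Cd74 (right, black), each with its 5 nearest genes (dashed). The chain profile peaks on Sca1+ replicate 1 and is lowest on Sca1- replicates 2 and 3, as are Ms4a1 and Cd22, while Cd74 varies little and peaks on Sca1- replicate 1.

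The rest of the class II pathway was read from a list of 41 symbols ordered by role. Of these 32 were measured and 27 tested, and between Sca1+ and Sca1- 0 passed in either direction with limma, 0 had an unadjusted p under 0.05, and 0 passed with the set as a block. Over all 8591 genes 0 passed (0%), 292 had an unadjusted p under 0.05, and with the set as a block 85 passed (0.989%), 0 of them higher. The median difference of the 27 was 0.07, the same as over all genes, and 17 were above 0, beside 55.9% of all genes. The plot of the other pathway genes gives each with its error.

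Among 8 peptide loading genes, 7 lay above 0, with a median of 0.53, beside 55.9% and 0.07 over all genes. Lgmn, which encodes the asparaginyl endopeptidase that trims the invariant chain, had the highest difference (1.67 ± 1.04), with signals of 10086 and 14059 in Sca1+ cells against 767, 8493 and 8113 in Sca1- cells, with Sca1- replicate 1 far below the rest. H2-DMb2, a beta chain partner of H2-DMa, differed by 0.78 ± 0.59 and Ifi30, a lysosomal thiol reductase that opens antigens for cutting, by 0.71 ± 0.54. The lowest were Ctsd (-0.06 ± 0.46) and Ctsb (0.07 ± 0.37), both lysosomal proteases. Ctss, the protease that makes the final cut in the invariant chain, exceeded the controls on all 7 arrays. Lgmn, Ifi30, Ctsl and Ctss were higher in both Sca1+ arrays than in any Sca1- array (4 of 8, beside 12.1% of all genes). Ifi30 read 836 on Sca1- replicate 1 against 2154 and 2481 on replicates 2 and 3, and Ctsl 9531 against 23637 and 20420. Within the second set, which lacks Sca1- replicate 1, the differences were 0.76 for Lgmn, 0.28 for Ifi30, 0.18 for Ctsl and 0.32 for Ctss. Sca1- replicate 1 also had the highest Actb ratio of 3' to 5' signal, 13.5. The part of that array's RNA quality in these differences was not tested.

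Transcriptional control genes had a median of -0.0015 over 9 tested. The highest were Irf8, a myeloid and B-cell factor (0.71 ± 0.51), and Rfx5, the DNA-binding subunit of RFX (0.40 ± 0.54), and the lowest were Spi1, which encodes PU.1 (-0.95 ± 0.63), and Creb1 (-0.50 ± 0.44). All RFX and NF-Y subunit genes except Rfxank exceeded the controls on all 7 arrays, and Rfxank did on 6. Between the sets Nfya rose by 1.87 ± 0.23 (limma, adjusted p = 0.00594) and Spi1 by 1.36 ± 0.25 (limma, adjusted p = 0.0175) in the second set. With Jak1, given below, 2 of the 27 pathway genes tested were higher and 1 lower in the second set. Over all 8591 genes 11.8% were higher and 7.46% lower, which are larger shares.

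Genes of interferon gamma signalling, which induces Ciita in many cells, had a median of -0.06 over 5 tested. Ifngr1 (0.27 ± 0.47) was highest and Ifngr2 (-0.31 ± 0.47), the other receptor chain gene, lowest. Ifng itself exceeded the controls on no array. Jak1, the kinase bound to the receptor, fell by 0.88 ± 0.21 in the second set (limma, adjusted p = 0.0364). Among 5 co-stimulation genes the median was 0.22. Cd274, which encodes the inhibitory ligand PD-L1 (0.78 ± 0.57), and Cd83, which stabilises class II at the surface (0.76 ± 0.43), were highest and Icosl (-0.76 ± 0.47) lowest.

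**Figure D4:**
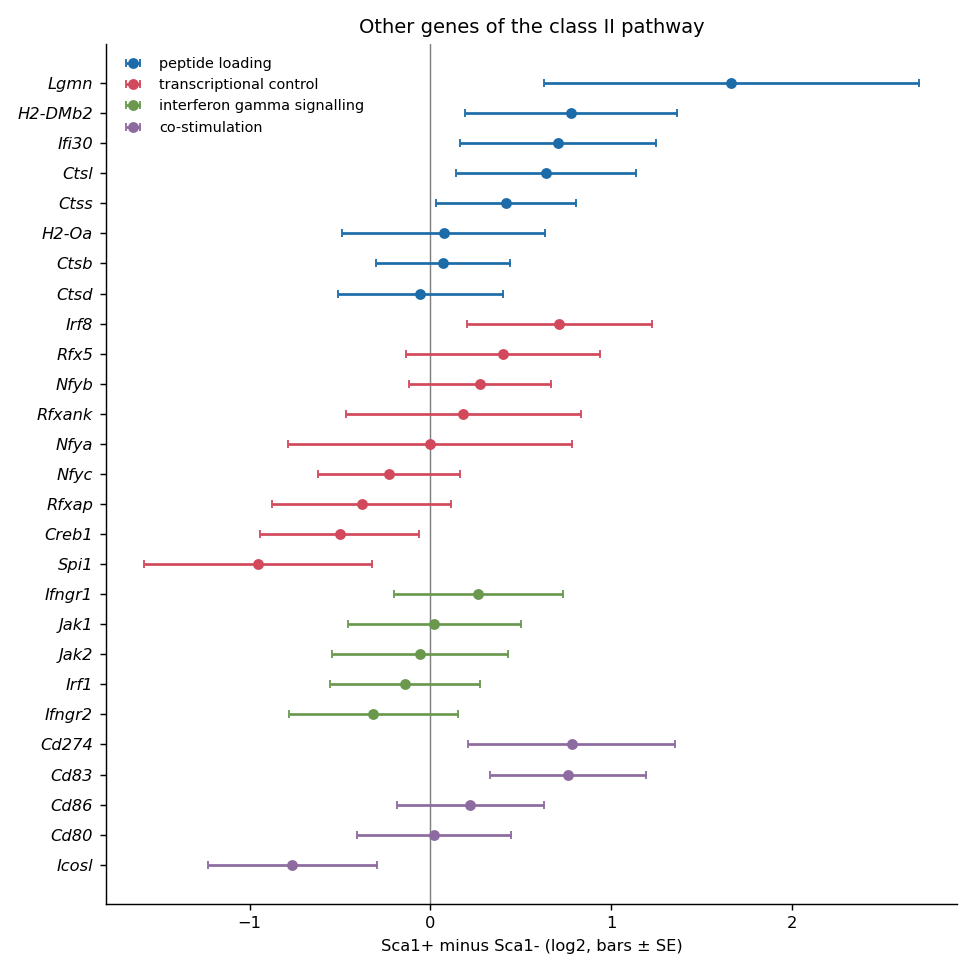
Log2 difference Sca1+ minus Sca1- (points, bars ± SE from limma) for the 27 tested genes of the class II pathway other than the 6 members, grouped by role. Lgmn (1.67) has the highest difference and the widest error, Spi1 (-0.95) the lowest, and none passed the test.

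Class I genes, whose products display peptides made inside the cell, were read beside them. Of 9 tested, 0 passed between Sca1+ and Sca1- with limma, 1 had an unadjusted p under 0.05 and the median difference was 0.27, with 7 above 0, beside 0.07 and 55.9% over all genes. H2-M3, a class I gene for formylated peptides, had the highest (1.23 ± 0.39, limma adjusted p = 0.9995) and H2-K1 the next (0.75 ± 0.44), and the peptide loading genes Tapbp (-0.20 ± 0.55) and Tap2 (-0.15 ± 0.49) the lowest. Between the sets 2 of 9 were lower in the second set, Tapbp and Psmb9, beside 7.46% of all genes. All 9 exceeded the background controls on all 7 arrays, which 3 of the 6 class II and invariant chain genes did with their brightest probe set.

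Class II signals read lower on the feeder array than on the unsorted array, as did its background. The highest background control was 60.8 on the feeder array and 170 on the unsorted array, and 6 of 10 probe sets exceeded it on the feeder array against 5 on the unsorted array. The part of background in the differences that follow was not tested. All 10 probe sets read lower on the feeder array, as did 62.0% of all probe sets of 1 gene. The brightest probe set of Cd74 read 161 on the feeder against 415 on the unsorted array, a log2 difference of -1.37, that of H2-Eb1 109 against 299 (-1.45) and that of H2-Aa 65.2 against 201 (-1.62). H2-Ab1 (-0.94), H2-DMa (-0.70) and Ciita (-0.91, with the feeder array at the floor and the unsorted signal of 120 below its control) differed by less. At least 2-fold lower on the feeder were 3 of 6 genes, beside 15.9% of 9751 genes with a signal above 100 on either array, and 0 of 6 were at least 2-fold higher, beside 4.08%. The median of the 6 was -1.16, beside -0.13 over those genes.

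The feeder array also had the lowest value of all 7 arrays for H2-Aa (1435290_x_at), H2-DMa and Cd74. For H2-Eb1 and H2-Ab1 it did not: Sca1+ replicate 2 and Sca1- replicates 2 and 3 were lower for H2-Eb1, and Sca1- replicates 2 and 3 for H2-Ab1. With 1 array on each side, from separate tables and array platforms, the difference has no test. With median scaling of the 7 arrays or with quantile normalization 9 of 10 probe sets stayed lower on the feeder, and the median of the 6 genes was -0.80 and -0.83, beside 0.28 and -0.03 over all genes. Class I genes had a median of -0.35 between the same arrays, with 0 of 9 at least 2-fold lower. Other class II pathway genes had a median of -0.08, with 9 of 32 at least 2-fold lower. Beside this, 15.9% of the 9751 genes above 100 on either array were so. Among the 9 were H2-DMb2 (-1.91), H2-Oa (-1.70), H2-Ea (-1.93), Irf4 (-1.50) and Ifngr1 (-2.02), and all of these except Ifngr1 were at the floor on the feeder array.

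The unsorted progenitors lay within the range of the sorted arrays for the brightest probe set of all 6 genes. For 1451721_a_at and 1425477_x_at of H2-Ab1 and 1421211_a_at of Ciita the unsorted array was the highest of the 7, with 164, 40.2 and 104, all below its highest control of 170. Against the mean of the 2 fractions the log2 differences were 1.07 for H2-Eb1, 0.67 for H2-Ab1, 0.51 for Ciita, 0.17 for Cd74, -0.32 for H2-DMa and -0.57 for H2-Aa. At least 2-fold above the fractions was 1 of 6 genes, beside 21.6% of 10510 genes. The median was 0.34, beside 0.28 over those genes.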

How the data were processed

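The deposited tables give each probe set's intensity on a linear scale. They were made with GCOS for the 3 second-set arrays, per the submitters' processing notes; that for the others was not given in the sources used here. Each of the 7 arrays had 22690 probe sets, 64 of them controls; the annotation names 1 gene for 20380 of the rest, several for 691 and none for 1555. No per-sample column was left unused, and no 2 arrays were identical in these tables. Arrays were brought to a 2% trimmed mean of 500, a floor of 64 was set, and signals were put on the log2 scale. A gene was read from its probe set of highest mean in the larger table (6 arrays). Genes above 100 on at least 2 sorted arrays were tested with limma 3.58.1 in R 4.3.3 (intensity trend, Benjamini-Hochberg adjustment over all genes, threshold 0.05), with group as the only term and, for the sets, with group and set; 3 and 2 residual degrees of freedom remained. The method was tested on simulated data. The number of arrays limits the precision.

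The members and lists were chosen with earlier results of these data known. The rule for names took, from each list, the highest and lowest differences between the fractions and genes past the threshold, with Ptprc and Pecam1 as checks of the label. Of the dendritic cell, macrophage, endothelial, fibroblast and hepatoblast markers the extreme differences are left out. The 7 fibroblast markers are given as a count, apart from those named for the filter. Chosen after their values were seen were Ctss, Ctsl, Rfxank, Ifng, Pax5, Ebf1, Fcer2a, Adgre1, Fcgr1, Cd68, Cd8a, Itgax, Clec10a, Cd209a, Xcr1, Ccr7, Flt3, H2-Ea, H2-Oa and Irf4. Alternatives were other scalings, floors and filters, the mean of probe sets, a block for the set or for the replicate number, and leaving out each sorted array; the scalings of all 7 arrays and the longer Y box were chosen after seeing the data. Plots used matplotlib 3.10.9.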

Additional observations from a re-analysis of the deposited data

Results flagged for a closer look

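For 3 of the 6 genes every comparison of Sca1+ with Sca1- ran one way in the first set and the other way in the second, which is what drew attention to them; the difference between the sets was not tested. H2-DMa differed by -0.56 in the second set and 0.65 in the first on the log2 scale, Cd74 by 0.24 in the second set and -0.53 in the first, and Ciita, near background, by 0.53 in the second set and -1.25 in the first.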

How the results depend on the processing

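The count of genes called between Sca1+ and Sca1- was 0. It was 85 when the deposit set entered as a block, 80 with the replicate block and 1 (Smad9, named after its value was seen) with no filter; without any 1 sorted array it was 0. Same-numbered arrays of the fractions deviated together (r = 0.57 for number 1 and 0.48 for number 2 across genes), but Sca1+ replicate 2 also did with Sca1- replicate 3 (r = 0.52), and the labels do not pair them. The median of the other pathway genes was 0.07, and 0.16 with the replicate block, 0.27 with the mean of probe sets, and between 0.081 and 0.30 without 1 array. The median of the 6 genes stayed within the spread between replicates under each of 14 alternatives, between -0.0029 and 1.04 without 1 array. The mean of probe sets gave 0.59 for H2-Ab1, against 1.75.

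The count called between the sets was 1653, and 542 with a doubled floor and 31 with no filter, and between 684 (without Sca1- replicate 3) and 3450 (without Sca1+ replicate 2; 3196 without Sca1+ replicate 1). Called members numbered 1, and 2 with quantile normalization or the mean of probe sets (H2-Aa joined), and 0 with a doubled floor, no filter or a minimum of 300. H2-Aa joined without Sca1- replicate 2 too. Leaving out a Sca1+ array or Sca1- replicate 1 left a fraction or a set with 1 sorted array, so no member count is given there. H2-DMa turned to -0.27 with quantile normalization and -0.18 with median scaling, and lay between -0.68 and 0.53 without 1 array. Of 9 alternatives in which H2-Eb1 could be tested it passed in 7, with adjusted p between 0.000894 and 0.132 (limma). Those 7 kept the filter on low signals, and without it or with a doubled floor H2-Eb1 did not pass. In the main fit it met that filter only through first-set arrays, so the tally is no independent check. The cause of these changes was not tested. Signal over background limits Ciita, H2-Eb1 and H2-Ab1.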
